A study of Mus musculus with 4 samples.

Results

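The replication-dependent histone genes were examined on the liver arrays of microsomic (M) and control (C) mice. The members are all gene names of the array that begin with Hist1h, Hist2h, Hist3h or Hist4h, 49 of 36161 gene names, with 54 probes. By histone type, they comprise 6 H1, 14 H2A, 12 H2B, 8 H3 and 9 H4 names. A probe without an outlier flag was left for 46 of them (35577 gene names in all), and the exceptions were Hist1h1c, Hist1h4h and Hist3h2a.

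The 4 groups were MF and MM, the microsomic females and males, and CF and CM, the controls of each gender, with 1 array each (4 arrays). Microsomia was defined in the study by a weight at birth under the tenth percentile of the gender, and the controls were littermates of normal weight. All groups are labelled as C57BL/6J, whole liver, at Embryonic Day 20, whereas the study describes newborn C57BL/6 N mice and several replicate experiments. No drug, diet or allele distinguishes the groups. The sources used here do not give whether RNA was pooled from several animals. The arrays shared a slide, with the M arrays in one column of it and the C arrays in another, so slide position and condition cannot be told apart. With 1 array per group, no spread within a group could be measured and no pair of groups was tested. The number of arrays limits the precision.

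DNA is wrapped around an octamer of the core histones H2A, H2B, H3 and H4, and the linker histones H1 bind where it enters and leaves. Cluster genes supply these proteins in S phase, when the genome is copied, from large clusters of intronless genes. Their mRNAs mostly end in a conserved stem-loop in place of a poly(A) tail, and the stem-loop binding protein SLBP brings them to processing and translation. In perinatal liver, hepatoblasts and the blood-forming cells of the organ both divide.

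Probes of histone genes often resemble each other, which limits how far the members can be told apart. A run of 20 identical bases or more was shared with the probe of another member in 16 genes, of which 8 were H2A, 1 H2B, 4 H3 and 3 H4. The H2A probes are shown because one result rests on them. The following 7 probes of 60 bases, of which 6 end at a stop codon, read the last codons of their genes. Capitals mark the longest run that each has in common with the Hist1h2ah probe, which is therefore printed in lower case.
Hist1h2ah: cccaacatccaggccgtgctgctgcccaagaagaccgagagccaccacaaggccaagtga
Hist2h2ac: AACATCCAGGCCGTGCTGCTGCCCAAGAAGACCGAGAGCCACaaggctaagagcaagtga
Hist1h2af: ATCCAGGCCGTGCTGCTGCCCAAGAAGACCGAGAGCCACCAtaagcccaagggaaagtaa
Hist1h2ag: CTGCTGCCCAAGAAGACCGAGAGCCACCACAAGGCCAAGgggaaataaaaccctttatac
Hist1h2ak: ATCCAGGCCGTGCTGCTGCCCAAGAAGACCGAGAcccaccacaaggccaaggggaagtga
Hist1h2an: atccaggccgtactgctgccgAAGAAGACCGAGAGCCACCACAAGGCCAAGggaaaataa
Hist2h2aa2: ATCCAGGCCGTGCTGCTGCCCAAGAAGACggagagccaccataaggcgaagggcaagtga

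The shared runs were 29 to 42 bases long. On mm9 the array annotation places these probes at chr13:22127035-22127094 (Hist1h2ah, minus strand), chr3:96024378-96024437 (Hist2h2ac, minus), chr13:23626113-23626172 (Hist1h2af, plus), chr13:21845304-21845363 (Hist1h2ak, minus), chr13:21878695-21878754 (Hist1h2an, minus) and chr3:96049837-96049896 (Hist2h2aa2, plus). For Hist1h2ag it gives an interval longer than the probe, which is not used here. RNA of any of these genes could bind several of the probes, so the 7 values are not independent measurements.

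The histone stem-loop was found in 6 member probes and in no other probe among all 55681 of the array. These sites show which probes reach the stem-loop, and capitals mark the arms of the stem. In Hist2h2aa1 the site begins at base 7 of the probe, so most of that probe lies past it. In the others it begins at base 39 to 42.
Hist1h3a: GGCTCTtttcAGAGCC
Hist1h3g: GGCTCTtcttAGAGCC
Hist1h3i: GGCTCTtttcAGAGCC
Hist1h4m: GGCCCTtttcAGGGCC
Hist2h2aa1: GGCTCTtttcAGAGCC
Hist2h2bb: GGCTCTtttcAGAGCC

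The stem arms pair over 6 bases around a loop of 4 bases in all of them. Both arms differ from the rest in Hist1h4m alone, and the loop differs in Hist1h3g alone.

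Levels below are processed signals as log2, centred on the array's 75th percentile, so that 0 marks the 75th percentile of its spots. They are compared between arrays for the same probe, never between probes. Genes well above background on 1 or both arrays of a pair were compared, and a difference was counted when it exceeded 1.5-fold. Repeated spots of the same probe on an array give an SD of 0.34 (log2) for a difference MF minus CF and 0.32 for MM minus CM, which covers the error of the array alone.

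The histone genes were well above background more often than the gene names of the array as a whole, which include long noncoding RNAs. The members include the 7 H2A genes with near-identical probes, whose detection is not independent. All 4 arrays showed a signal well above background for 40 of the 46 members (87.0%), against 54.3% of all genes, and no array did so for Hist1h1t and Hist2h2ab. The remaining 4, Hist1h1d, Hist1h2bq, Hist2h2bb and Hist3h2bb-ps, reached it on some of the arrays. Hepatocyte markers of the labelled tissue were well above background on every array (7 of 7 with a usable probe), as were the erythroid (8 of 8) and neutrophil (7 of 7) markers and 5 of 6 macrophage markers.

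In females, 10 histone genes were higher and 11 lower in MF than in CF by more than 1.5-fold, among 44 compared. Of all 25538 genes compared, 40.9% differed by this much, 19.9% higher and 21.1% lower in MF. The median difference of the members was 0.02 on the log2 scale, beside -0.06 for all genes. The types went different ways, with medians of 0.63 in H2A, -0.64 in H4, -0.28 in H2B, -0.27 in H1 and 0.02 in H3. The 10 higher genes were 8 of H2A, 1 of H1 and 1 of H3, and the 11 lower ones were 4 of H2B, 4 of H4, 2 of H1 and 1 of H3. Of the 8 H2A genes, 7 carried the near-identical probes printed above, whose values are not independent. The H1 median was 0.15 with flagged spots kept and 0.14 without scaling. With quantile normalization 5 members were higher and 13 lower, with quantile normalization after normexp background correction 6 and 9, and without scaling 15 and 2.

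In males, 4 histone genes were higher and 10 lower in MM than in CM, among 42 compared. Of all 26315 genes compared, 40.8% differed, 17.7% higher and 23.1% lower in MM. The median of the members was -0.28, beside -0.01 for all genes, and the type medians were 0.16 in H1, -0.48 in H2A, -0.17 in H2B, 0.18 in H3 and -0.64 in H4. The H2A median was 0.04 with quantile normalization after normexp background correction and 0.08 without scaling. The lower genes were 4 of H2A, all with the near-identical probes printed above, 2 of H2B and 4 of H4. The split moved to 6 higher and 5 lower with median centring, to 15 and 1 without scaling, and to 10 and 10 with quantile normalization after normexp background correction.

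**Figure D1:**
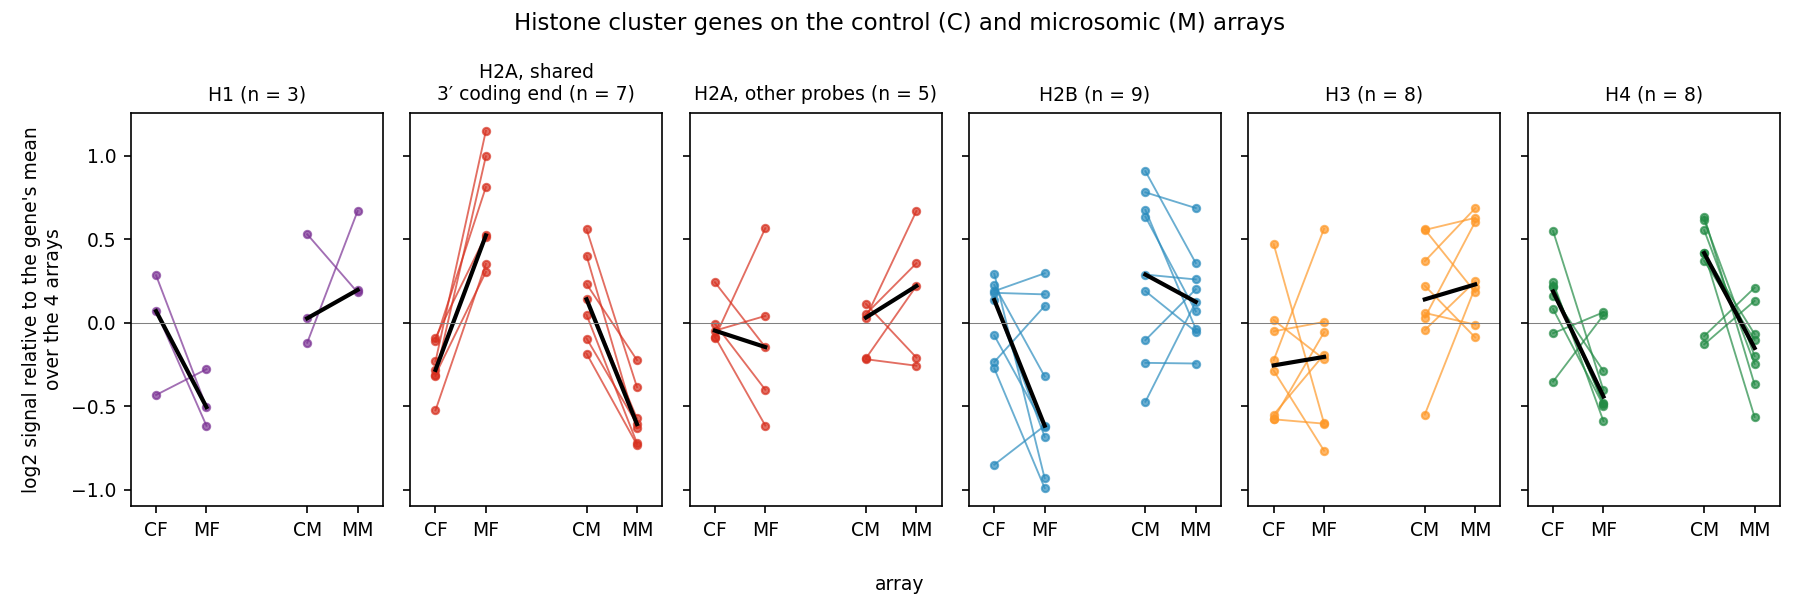
Log2 signal of each histone gene relative to its own mean over the 4 arrays (vertical axis), on the CF, MF, CM and MM arrays, for the 40 genes well above background on all of them. Thin lines join the arrays of a gender for each gene and thick black lines join the medians. The 7 H2A genes with a probe at the shared 3′ coding end rise from CF to MF and fall from CM to MM, and most H4 genes fall in both genders.

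The H2A genes gave the largest type median in females, 0.63, but 0.03 with either quantile normalization, where after normexp background correction the H3 median of 0.24 was larger. These genes encode the core histone that pairs with H2B, and 7 of them carried the near-identical probes printed above. Hist2h2ac had levels of 9.59 on MF, 8.27 on CF, 7.87 on MM and 8.64 on CM. The MF array thus exceeded CF by 2.49-fold, and MM lay 1.70-fold under CM. Hist2h2aa2 had levels of 9.54 on MF, 8.16 on CF, 7.67 on MM and 8.21 on CM, which is 2.60-fold higher in MF and 1.46-fold lower in MM. For both genes the MF array stood highest and the MM array lowest of the 4.

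The other 5 showed the same order within each gender. Hist1h2af had levels of 8.58 on MF, 7.71 on CF, 7.85 on MM and 8.79 on CM. Hist1h2an had levels of 8.51 on MF, 7.71 on CF, 7.36 on MM and 8.39 on CM. In Hist1h2af the control male array was the highest of the 4, and in Hist1h2an the MF and CM arrays were close. Hist1h2ag had levels of 9.47 on MF, 8.54 on CF, 8.05 on MM and 8.56 on CM. Hist1h2ak had levels of 8.93 on MF, 8.32 on CF, 7.83 on MM and 8.55 on CM. Both had their highest level on MF and their lowest on MM. Hist1h2ah, with the smallest male difference, had levels of 8.75 on MF, 8.13 on CF, 8.22 on MM and 8.67 on CM.

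For the 7 genes the difference MF minus CF was 0.61 to 1.38 with a median of 0.88, past 1.5-fold in 7 of 7. The difference MM minus CM was -1.03 to -0.46 with a median of -0.71, past 1.5-fold in 4 of 7. With quantile normalization the female median was 0.08, Hist1h2ak was -0.16 and Hist1h2an -0.01 in females, and with normexp background correction and quantile normalization Hist1h2an was -0.29 in females and Hist1h2ak 0.08 in males. Other genes of like signal moved in the same way. Of 125 other genes whose mean level lay between 7.99 and 8.65 like that of these 7, 115 were higher in MF than in CF, 67 of them past 1.5-fold, with a median of 0.67. In males 99 of the 125 were lower in MM than in CM, 19 past 1.5-fold, with a median of -0.22, and 92 (73.6%) showed both directions. H2afj, an H2A variant gene outside the clusters whose probe shares up to 38 bases in a row with these probes, had a difference of 1.10 in females and -0.98 in males. It was named after its values were seen.

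Other probes of H2A genes are given for comparison, and their difference from the shared end was not tested. The second probe of Hist1h2ak, which lies outside the shared end, had levels of 5.62 on MF, 5.52 on CF, 6.01 on MM and 6.07 on CM, with differences of 0.10 and -0.06. The Hist2h2aa1 probe with its stem-loop at chr3:96049955-96049970 (mm9) lies just downstream of the Hist2h2aa2 probe, on the same strand. Most of this probe lies past the stem-loop, in which most of these mRNAs end. The Hist2h2aa1 probe had levels of 4.38 on MF, 4.76 on CF, 4.31 on MM and 4.63 on CM, lower in M by 0.39 and 0.32 (log2). So adjoining probes of this stretch, annotated to different genes, differed in direction in females. The 5 H2A genes that were well above background on all arrays through another probe had a median of -0.39 in females and 0.30 in males, beside -0.12 and 0.03 for 15246 other genes in the same range of mean level. Among these, Hist1h2ab, a cluster H2A gene, had levels of -3.29 on MF, -2.76 on CF, -2.01 on MM and -2.65 on CM, and was 1.56-fold higher in MM. Hist1h2aa had the same directions as the shared end, 1.57-fold higher in MF with a male difference of -0.04.

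H4 was the type with the lowest medians in M relative to C in both genders, except that H1 was lower in females (-0.69) with no filter on dim probes. This core histone pairs with H3, and its genes encode the same protein. In 5 of 8 genes the level was lower in M in both comparisons (62.5%), as it was in 28.0% of the 11260 other genes in the same range of mean level. The probes of Hist1h4d and Hist1h4j share 20 bases in a row, so the 8 values are not all independent. Each rests on 1 array per group, and the share of 62.5% was not tested as an excess. The medians, -0.64 in females and -0.64 in males, kept their sign under every alternative (-0.80 to -0.23 and -0.80 to -0.08). The range of the single genes was -0.95 to 0.40 in females and -1.005 to 0.29 in males.

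Hist1h4i had levels of 2.36 on MF, 3.31 on CF, 2.20 on MM and 3.18 on CM, 1.94-fold and 1.98-fold lower in M. Both control arrays lay above both M arrays, and its second probe was also lower in M, by 0.87 and 0.55 (log2). The male difference of -0.98 was -0.23 with normexp background correction and quantile normalization. Hist4h4, the H4 gene outside the large clusters, had levels of -0.63 on MF, 0.07 on CF, -0.51 on MM and 0.49 on CM, 1.63-fold and 2.01-fold lower in M. Here too both M arrays lay below both controls. How many of all genes separate in this way was not counted. In females its difference of -0.70 was -0.51 with normexp background correction and quantile normalization. Hist1h4k had levels of 1.92 on MF, 2.50 on CF, 2.22 on MM and 3.03 on CM, 1.49-fold and 1.76-fold lower, so that it missed the threshold narrowly in females. Hist2h4 had levels of 1.63 on MF, 2.47 on CF, 2.15 on MM and 2.64 on CM, 1.78-fold and 1.40-fold lower.

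Not every H4 probe followed these genes. The second probe of Hist2h4 was 1.46 (log2) lower in MF than in CF but 0.87 higher in MM than in CM, and the second probe of Hist1h4k had differences of -0.51 and 0.03. Hist1h4j, whose probe shares 26 bases in a row with that of Hist1h4k, had differences of -0.45 and 0.29. Hist1h4m, with its probe on the stem-loop, was 0.40 higher in MF and 1.74-fold lower in MM than in the controls.

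The H2B genes encode the partner of H2A. In females 4 of 12 were lower in MF past 1.5-fold and none higher (0 of 12), and in males 2 of 10 were lower and 1 higher. Of all genes 21.1% were lower in females and 23.1% in males. The female median, -0.28, was 0.12 without scaling, and the male median, -0.17, was 0.07 with median centring and 0.39 without scaling. Hist1h2bp had levels of -2.07 on MF, -0.85 on CF, -1.18 on MM and -0.47 on CM, 2.34-fold and 1.64-fold lower in M, with each M array below the control of its gender. Its male difference of -0.71 was -0.48 with median centring and -0.14 with normexp background correction and quantile normalization. Hist1h2bq was well above background on every array except MM, where the bound put it 3.43-fold lower than in CM. This bound lies near background, since Hist2h2bb at -5.13 on MM was not well above it, so the true difference could be smaller. Hist1h2be was higher in MM by 1.51-fold, with levels of -2.57 and -3.17, and differed by -0.01 in females. The pseudogene Hist3h2bb-ps was 1.85-fold lower in MF than in CF, and was not well above background in either male.

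Divergent H2A and H2B pairs share the DNA between their starts. In females the members of none of these pairs differed in the same way past 1.5-fold, and in males Hist1h2an and Hist1h2bp were both lower in MM. By RefSeq starts on GRCm38.p6, 3 pairs of members lay head to head within 500 bases. In the pair Hist1h2an and Hist1h2bp, 240 bases apart, Hist1h2an had differences of 0.80 in females and -1.03 in males, and Hist1h2bp of -1.22 and -0.71. The Hist1h2an probe is one of the near-identical probes printed above, so its values cannot be assigned to this gene alone. For Hist1h2bp the male call was lost with median centring (-0.48), without scaling (-0.15) and with normexp background correction and quantile normalization (-0.14). A joint change of this pair was not tested. For Hist1h2ae and Hist1h2bg the female differences were 0.09 and -0.82, and the male differences 0.43 and -0.03. For the testis pair Hist1h2aa and Hist1h2ba they were 0.65 and -0.72 in females, and -0.04 and -0.55 in males.

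Among the H3 genes, which encode the partner of H4, values were scattered around 0. The medians, 0.02 in females and 0.18 in males, changed sign with other processing (-0.06 in females with quantile normalization and -0.14 with the position trend removed, -0.12 in males with normexp background correction and quantile normalization). Hist1h3g had levels of -1.23 on MF, -2.01 on CF, -1.58 on MM and -2.34 on CM, 1.73-fold and 1.69-fold higher in M. Of all members it was the only one higher in M past 1.5-fold in both genders. Both M arrays lay above both controls, a separation that was not counted over all genes. The call in both was lost with the position trend removed (0.31 in females) and with normexp background correction and quantile normalization (0.51 in males). Hist1h3c had levels of 2.42 on MF, 1.90 on CF, 3.08 on MM and 2.51 on CM, higher in M by 0.52 and 0.57. Hist1h3i had levels of -2.35 on MF, -1.28 on CF, -1.84 on MM and -1.53 on CM, 2.10-fold lower in MF than in CF.

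The linker histones of somatic cells did not move together. Hist1h1b had levels of -3.07 on MF, -2.39 on CF, -1.79 on MM and -2.58 on CM, which is 1.61-fold lower in MF and 1.73-fold higher in MM than in the controls. Hist1h1a had levels of -3.12 on MF, -2.33 on CF, -2.42 on MM and -2.59 on CM, 1.73-fold lower in MF. Hist1h1d was higher in MF by 2.51-fold, with levels of -2.72 and -4.04, and was not well above background on CM. Hist1h1e had differences of 0.15 and -0.35. Hist1h1c was measured by a spot with the non-uniformity flag on MF and CF, so its levels of 5.61 on MF, 4.88 on CF, 4.16 on MM and 5.23 on CM are given without a comparison.

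Members used in testis or outside S phase were also measured. The testis-specific linker histone Hist1h1t was not well above background on any array. The testis histones Hist1h2aa and Hist1h2ba were well above background on all 4, with levels of -2.40 on MF, -3.05 on CF, -3.22 on MM and -3.18 on CM for Hist1h2aa. Hist1h2ba had levels of 3.01 on MF, 3.73 on CF, 4.36 on MM and 4.91 on CM, and both males stood above both females. Of the members known to give polyadenylated mRNA, Hist1h2bc had differences of -0.55 and 0.30, and Hist2h2be of 0.11 and 0.00.

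**Figure D2:**
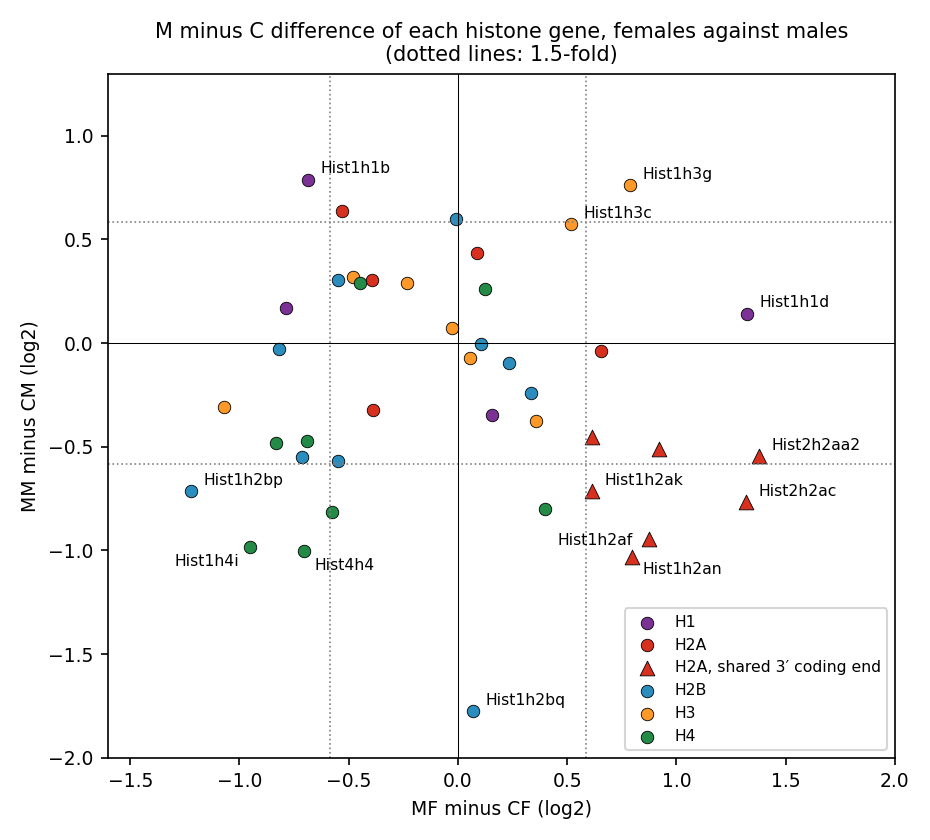
Difference MF minus CF (horizontal) against MM minus CM (vertical), both log2, for the 42 histone genes compared in both genders, coloured by type, with dotted lines at 1.5-fold and triangles for the 7 H2A genes with the shared 3′ coding end. The male values of Hist1h2bq and Hist1h1d are bounds. The triangles lie at lower right, and Hist1h4i, Hist4h4 and Hist1h2bp at lower left.

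Compared in both genders, 42 members fell into the following classes. Lower in M past 1.5-fold in both were 3 members, Hist1h2bp, Hist1h4i and Hist4h4, against 3.8% of all 23967 genes so compared (7.14% of the members). None of these 3 passed in both without scaling, nor after normexp background correction with quantile normalization (0 of 3). Higher in both was 1 member, Hist1h3g (2.38%, all genes 3.19%). Higher in MF and lower in MM were 4 members, Hist1h2af, Hist1h2ak, Hist1h2an and Hist2h2ac (9.52%, all genes 5.81%), and with quantile normalization no member passed in opposite ways (0). All 4 carry probes of the shared 3′ coding end, so they are not 4 independent values and the share of 9.52% cannot be read as an excess. Lower in MF and higher in MM was 1 member, Hist1h1b (2.38%, all genes 4.04%). After normexp background correction with quantile normalization none of these 5 passed (0 of 4 and 0 of 1), and the female values were 0.02 for Hist1h2af, 0.10 for Hist1h2ak, -0.29 for Hist1h2an, 0.33 for Hist2h2ac and -0.44 for Hist1h1b. The 4 opposite members there were other genes. The opposite differences were not tested, since each rests on 1 array per group.

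A change common to both genders was tested with limma on all 4 arrays, with M or C and gender as terms, over 19303 genes. This leaves 1 residual degree of freedom. After Benjamini-Hochberg adjustment, 0 genes (0%) and 0 of 40 members passed an adjusted p of 0.05, and the smallest adjusted p of limma was 0.964 over all genes and 0.995 over the members. At an unadjusted p under 0.05 limma listed 853 genes (4.42%) and 1 member, Hist1h4i, with a log2 change of -0.97 (SE 0.41). At the study's thresholds (1.5-fold and an unadjusted p below 0.01), limma listed 163 genes (0.844%) and 0 members. The study applied these thresholds to pairs of groups with replicate experiments. Here they were applied to a change common to both genders, so the counts are not a rerun of its comparisons.

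Values also differed between the genders. These comparisons share their arrays with those above. CM exceeded CF in 11 members and fell below it in 3 of 43, beside 46.3% of all genes, 26.6% higher and 19.7% lower. MM exceeded MF in 12 members and fell below it in 9 of 44, beside 49.5% of all genes, 28.9% higher and 20.5% lower. Hist1h2bm had the largest difference CM minus CF of the members, with levels of 5.14 on CM, 3.51 on CF, 5.04 on MM and 3.74 on MF. It was higher past 1.5-fold in the males of both conditions, as were Hist1h2ba, Hist1h2bb, Hist1h3a, Hist1h3c and Hist1h3f. The share of all genes with this pattern was not counted. Of the 9 that were lower in MM than in MF, 7 were H2A genes, all but Hist1h2aa with a probe of the shared 3′ coding end.

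**Figure D3:**
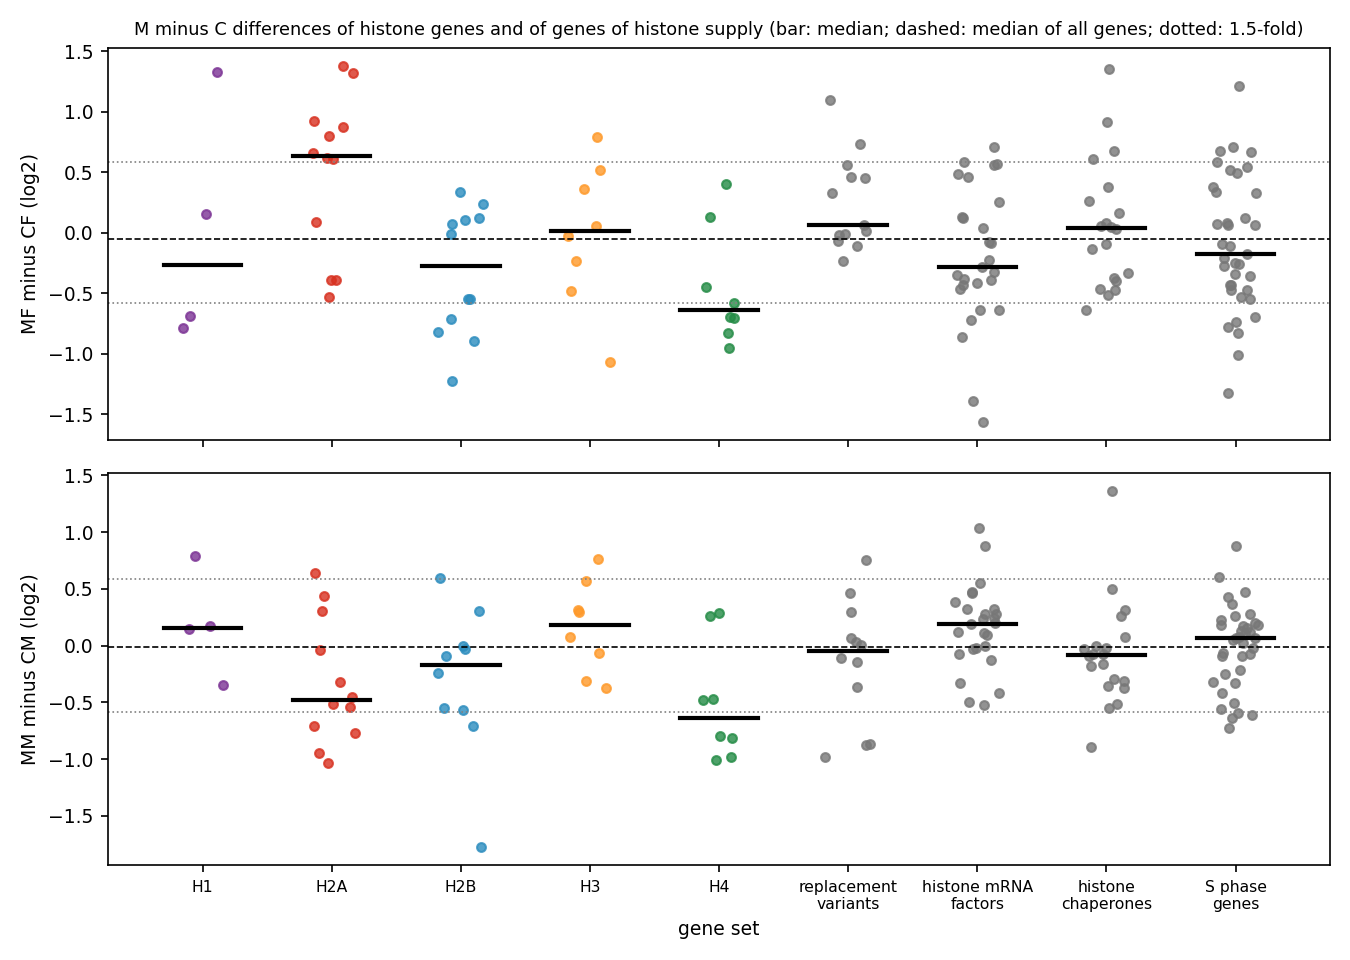
Differences MF minus CF (upper) and MM minus CM (lower), log2, for each histone type and for genes that supply or handle histones, with a point per gene, a bar at the median, a dashed line at the median of all genes and dotted lines at 1.5-fold. H4 has its median below the lower dotted line in both panels, whereas the 4 other lists have medians between -0.29 and 0.19.

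Genes that make or process histone mRNA were compared next, from a list of 29 of which 27 were measured. In females 1 was higher and 6 were lower past 1.5-fold of 27, with a median of -0.29, and in males 2 were higher and none lower (0) of 26, with a median of 0.19. Slbp, the stem-loop binding protein, had levels of 3.66 on MF, 4.09 on CF, 4.35 on MM and 3.48 on CM, 1.83-fold higher in MM than in CM. This difference of 0.87 was 0.55 with the position trend removed, 0.43 as the mean over probes and -0.01 with normexp background correction and quantile normalization. Casp8ap2, which encodes the histone locus body protein FLASH, had levels of -0.59 on MF, 0.98 on CF, 0.78 on MM and 0.22 on CM, 2.96-fold lower in MF. Npat, the coactivator of histone transcription, was well above background on CF alone, with a level of -4.64, and was at least 2.62-fold lower on MF. This bound lies near background, since CM at -4.28 was not well above it. The female difference was -0.53 with normexp background correction and quantile normalization.

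Replacement histone variants are mostly made outside S phase, from polyadenylated mRNA. They gave 2 higher and 0 lower of 13 in females, and 1 higher and 3 lower of 12 in males. The medians were 0.07 and -0.05. These counts include H2afj, higher in females and lower in males, whose probe shares up to 38 bases in a row with the H2A end probes. Its value is therefore not separate from theirs. H2afz, the gene of H2A.Z, had differences of -0.11 and 0.03. H2afx, the gene of the DNA damage variant H2A.X, had -0.23 and 0.01. H3f3a and H3f3b both encode H3.3, and had differences of 0.45 and -0.88 and of -0.07 and -0.37. H1f0, the linker histone of resting cells, had -0.01 and 0.75.

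Histone chaperones, which carry histones to DNA, gave 4 higher and 1 lower of 20 in females, and 1 higher and 1 lower in males, with medians of 0.04 and -0.08. S phase genes gave 4 higher and 6 lower of 37 in females, and 2 higher and 4 lower in males, with medians of -0.18 and 0.06. Tyms, the thymidylate synthase of DNA synthesis, was the one gene of these lists lower in M past 1.5-fold in both genders, by 0.69 and 0.64 (log2). This call was lost with median centring (-0.40 in males), without scaling (-0.08 in males), after normexp background correction with quantile normalization (-0.41 in females) and with the position trend removed (-0.52 in females).

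The makeup of the liver RNA also varied between arrays. The summed level of the 13 measured proliferation markers, on a linear scale relative to the 75th percentile, was 318 on MF, 367 on CF, 244 on MM and 230 on CM. For the 8 erythroid markers it was 2008 on MF, 2758 on CF, 1456 on MM and 2356 on CM, lower on both M arrays. Without the globins Hba-a1 and Hbb-b1, the other 6 summed to 362 on MF, 246 on CF, 148 on MM and 253 on CM, higher on MF than on CF. Of the erythroid markers 2 were higher and 2 lower past 1.5-fold in females, and none higher (0) and 2 lower in males. Hbb-b1, the adult beta globin, was lower in M by 0.68 and 0.86 (log2), but with quantile normalization its male difference was -0.09, and after normexp background correction its values were -0.30 and -0.38. Slc4a1, the anion exchanger of the red cell membrane, was 1.79-fold higher in MF and 3.12-fold lower in MM, and Alas2, the erythroid enzyme of heme synthesis, was 1.62-fold higher in MF and 1.18-fold lower in MM. These were named after their values were seen. For the 7 neutrophil markers the sum was 1808 on MF, 881 on CF, 903 on MM and 1209 on CM, and for the 7 hepatocyte markers 6379 on MF, 5901 on CF, 3860 on MM and 5504 on CM. The 6 macrophage markers summed to 183 on MF, 69.4 on CF, 69.4 on MM and 61.9 on CM, and Clec4f of Kupffer cells was higher in M by 0.93 and 0.63, with a male difference of 0.57 with quantile normalization and 0.01 after normexp background correction. No defining marker of these cell types was below background on all 4 arrays. The part of these differences in the histone values was not tested, and in whole liver fewer cells of a type and less RNA per cell cannot be told apart.

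**Figure D4:**
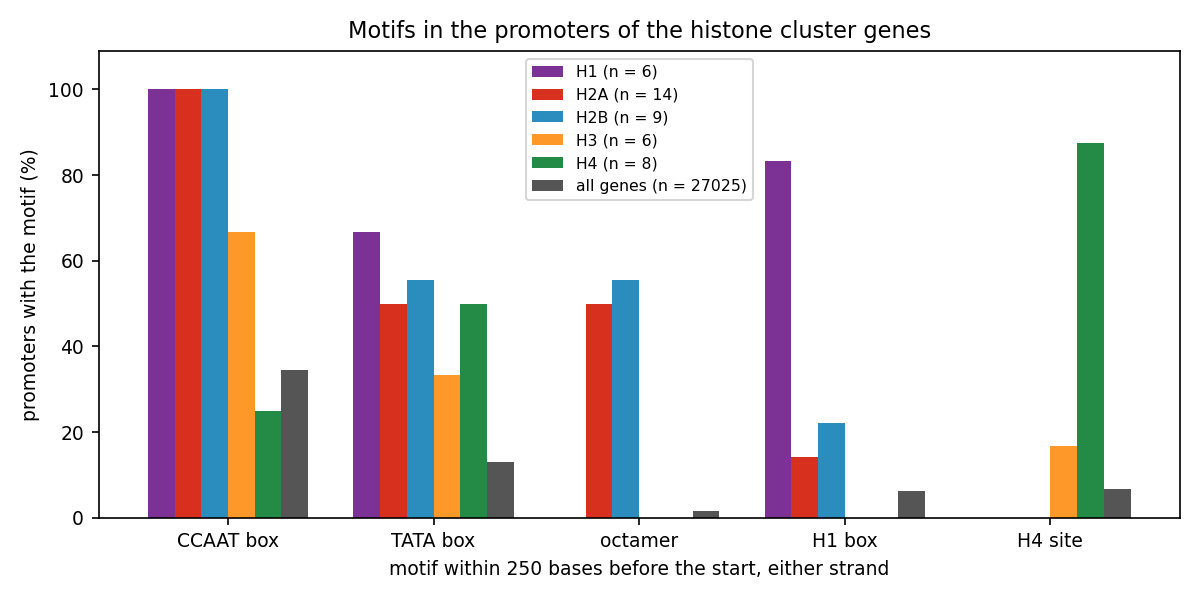
Share of promoters (per cent, vertical axis from 0) that hold a motif on either strand in the 250 bases before the start, for each histone type and for all genes with a promoter in the RefSeq table. The H4 site is held by 87.5% of the H4 promoters and 6.82% of all promoters, and the octamer only by H2A and H2B promoters among the histone types.

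Upstream sequences are shown because H4 was the type with a median of -0.64, past 1.5-fold, in both genders in the main setting. The medians fell short of 1.5-fold with median centring (-0.54 in females and -0.40 in males), without scaling (-0.23 and -0.08) and with the position trend removed (-0.44 and -0.54). In females they also did so after normexp background correction with quantile normalization (-0.48) and with flagged spots kept (-0.58). In males they did so with the GC trend removed (-0.52) and as the mean over probes (-0.43). All 49 names were matched to RefSeq by accession or synonym, and 43 had a promoter in the table (GRCm38.p6). Motifs were searched as exact letters on both strands in the 250 bases before the start. GGTCCG, the core of the H4 site bound by HINFP, was found in 7 of 8 H4 promoters (87.5%), 1 of 6 H3 promoters and no H1, H2A or H2B promoter, and in 6.82% of 27025 promoters of all genes. CCAAT, bound by NF-Y, was found in 6 of 6 H1, 14 of 14 H2A and 9 of 9 H2B promoters, but in 2 of 8 H4 promoters and 34.5% of all. ATTTGCAT, the octamer bound by OCT1, was found in 7 of 14 H2A and 5 of 9 H2B promoters and in 1.61% of all. AAACACA, the H1 box, was found in 5 of 6 H1, 2 of 14 H2A and 2 of 9 H2B promoters and 6.22% of all, and TATAAA in 22 of 43 member promoters and 13.0% of all. No motif contains the letters of another, and a match is a description of the letters only. Of the factors, Hinfp had differences of 0.46 in females and 0.32 in males, and Pou2f1, the gene of OCT1, of -0.41 and 0.46. Both were named for these motifs and not by their values.

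The 150 bases before the start follow for the H4 genes that were lower in M in both genders past 1.5-fold, and for Hist1h2an, the H2A gene that shares its upstream DNA with Hist1h2bp. The values of the Hist1h2an probe cannot be assigned to this gene alone, so its stretch is shown as a description of the letters only. Capitals mark the motifs above on either strand. On GRCm38.p6 they lie at chr13:22041363-22041512 (Hist1h4i), chr6:136804432-136804581 (Hist4h4) and chr13:21787249-21787398 (Hist1h2an), all on the minus strand.
Hist1h4i: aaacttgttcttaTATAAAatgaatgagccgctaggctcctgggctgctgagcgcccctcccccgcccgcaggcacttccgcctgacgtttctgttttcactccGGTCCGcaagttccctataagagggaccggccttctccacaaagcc
Hist4h4: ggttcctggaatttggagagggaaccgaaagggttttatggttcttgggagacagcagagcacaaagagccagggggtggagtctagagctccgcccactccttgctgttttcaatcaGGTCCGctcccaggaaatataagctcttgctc
Hist1h2an: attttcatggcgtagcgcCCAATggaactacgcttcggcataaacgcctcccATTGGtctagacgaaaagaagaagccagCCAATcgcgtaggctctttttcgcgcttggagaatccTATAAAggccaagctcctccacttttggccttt

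The H4 promoters hold GGTCCG near the start and no CCAAT in the stretch printed. The Hist1h2an stretch holds CCAAT in both orientations and no GGTCCG. Hist1h4m, which was higher in MF, also holds GGTCCG. So do Hist1h4c, higher in M in both genders (0.13 and 0.26), and Hist1h4j, with differences of -0.45 and 0.29. A link of the site with the differences was not tested. Hist1h4h, left without a usable probe, was the H4 gene without a match. Its searched stretch ends in ggtcc at the start, so a site across the start could not be matched.

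**Figure D5:**
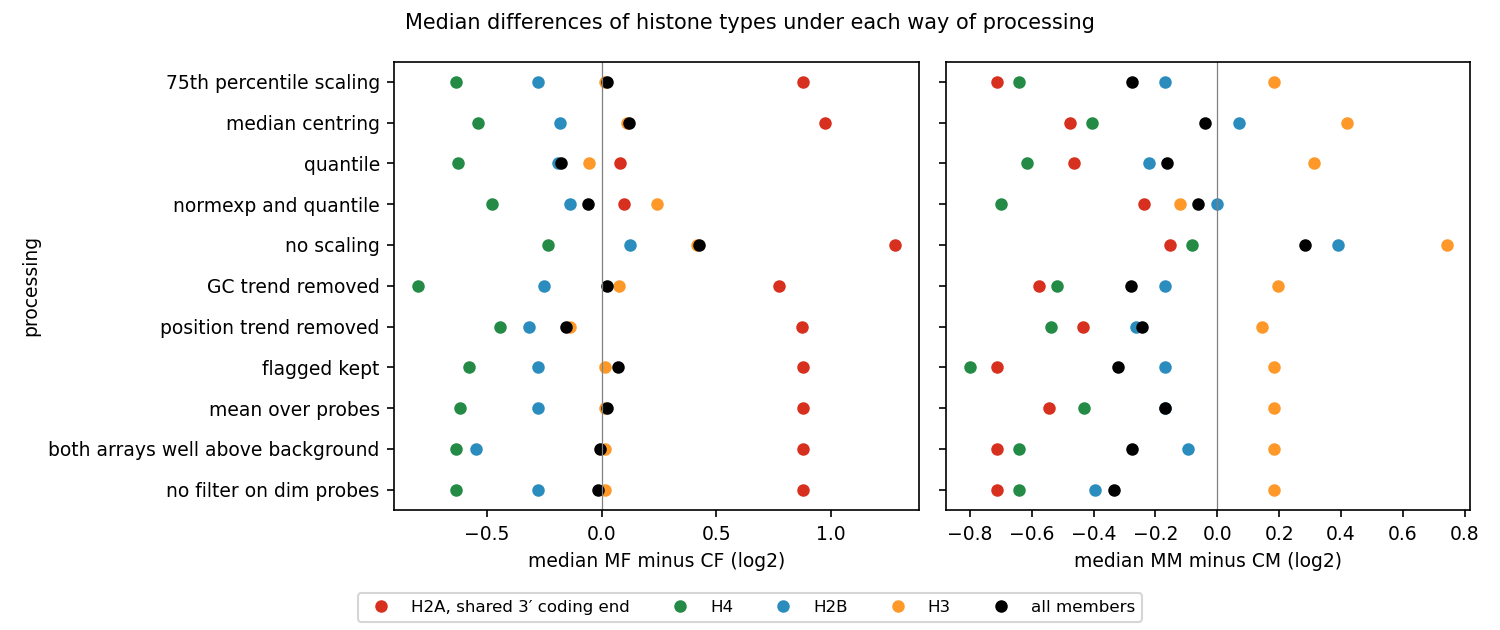
Median log2 difference MF minus CF (left) and MM minus CM (right) of the H2A genes with the shared 3′ coding end, of H4, H2B and H3 genes and of all members, for each way of processing (rows). The H4 points lie left of 0 in every row of both panels, and the H2A points lie right of 0 in females, closest to it with quantile normalization.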

How the data were processed

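Liver RNA was labelled with Cy3 (Agilent Quick Amp, which primes from the poly(A) tail) and measured on 4 Agilent SurePrint arrays (G3 Mouse GE 8x60K) read in 1 colour, 1 per group. As deposited by the authors, values are processed signals of Agilent Feature Extraction 10.7.3.1, an intensity on a linear scale with a fitted background subtracted and no normalization between arrays. The deposited value table equals them in 62976 of 62976 spots. Most cluster histone mRNAs lack a poly(A) tail, and how this affected labelling was not tested. The number of arrays limits precision.

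From the log2 signal of each array its 75th percentile was subtracted, which ranged from 628 to 925. The 1754 spots that the software marked as outliers on some array were removed. The brightest remaining probe stood for each gene. If a gene was dim on the second array of a pair, the lowest signal well above background there (log2 -6.03 to -4.69) or the probe's own, if higher, gave a bound. limma 3.58.1 (R 4.3.3) was tested on simulated data. Other steps used Python 3.11.15 with pandas 2.3.3.

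Members were defined by name. Genes named are those past 1.5-fold the same or opposite ways in both genders, the 5 largest rises and falls per comparison among members well above background on both arrays, the testis, linker and polyadenylated members, and of the lists those past 1.5-fold the same way in both genders or defining for them. Others are named where the text says so or to compare probes of a type. The members and lists were chosen with earlier results of these data known. Alternatives were other scalings and background correction, filters, probes, flags, a 2-fold threshold, and removal of trends with GC content or position. Promoters are from RefSeq, GRCm38.p6, and probe positions from the array annotation, mm9.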

Additional observations from a re-analysis of the deposited data

Results flagged for a closer look

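Among members past 1.5-fold in opposite ways in the genders, the difference M minus C in females less that in males (log2) was 2.08 for Hist2h2ac, 1.83 for Hist1h2an, 1.82 for Hist1h2af, 1.32 for Hist1h2ak and -1.47 for Hist1h1b. Each rests on 1 array per group, and the difference between the genders was not tested. Hist1h1c and Hist1h4h were left out of the comparisons because their spot had the non-uniformity flag, on MF and CF for Hist1h1c and on MF for Hist1h4h, and there MF exceeded CF by 0.73 and 3.20 on the log2 scale. In males the same Hist1h4h probe was lower in MM than in CM by 2.28.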

How the results depend on the processing

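The median of all genes well above background on both arrays, -0.11 in females and -0.07 in males, was -0.01 and 0.17 with median centring and 0.29 and 0.49 without scaling. With median centring, 5 members were lower in males, 2 higher in both genders and 3 opposite. With quantile normalization, 5 were higher in females, 5 lower in both genders and 0 opposite. With normexp background correction and quantile normalization, 6 were higher in females, 10 higher in males and 0 higher in both. Without scaling, 2 were lower in females, 1 lower and 15 higher in males, 0 lower and 3 higher in both and 0 opposite, with member medians of 0.43 in females and 0.28 in males. With the position trend removed, 2 were higher in males, 0 higher in both and 3 opposite.

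At 2-fold, 5 members passed in females (3 higher, 2 lower), 3 in males (0 higher, 3 lower), 5 between the control genders and 13 between the M genders, with 0 lower in both, 0 higher in both and 0 opposite. Shares of all genes are given only at 1.5-fold in the main setting. The member counts at 2-fold and in the other settings therefore cannot be called more or fewer than those of all genes. limma listed 10 genes at an adjusted p under 0.05 without scaling, and 163 at the threshold of the methods, where the other settings gave 83 (no gender term) to 598 (no scaling), 252 with median centring and 93 with normexp background correction and quantile normalization. No member (0) passed in these settings, and 0 to 2 had an unadjusted p under 0.05. Of 18 named members past 1.5-fold in females and 12 in males, 18 and 8 remained with median centring, 13 and 10 with quantile normalization, 8 and 5 after normexp background correction, 11 and 4 without scaling and 13 and 8 with the position trend removed. Of 698 gene values 44 changed sign, 5 of them of differences past 1.5-fold. The 5 were -0.16 (Hist1h2ak) and -0.012 (Hist1h2an) in females with quantile normalization, and -0.29 (Hist1h2an, females), 0.083 (Hist1h2ak, males) and -0.0087 (Slbp, males) with normexp background correction and quantile normalization. The other 122 values of the counts and of the medians of all members stayed within 1.5 times or the error of repeated spots. Of the type medians and single-gene values, 652 stayed the same by this measure, 161 moved further and 5 reversed. The cause of these changes was not tested. No paired analysis was possible because each group has 1 array. Signals near background give bounds only, and the array's repeated spots cover no variation between animals.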
